A study of Homo sapiens with 40 samples.

Results

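The 10 genes described here encode S100 proteins: S100A2, S100A4, S100A6, S100A7, S100A8, S100A9, S100A10, S100A11, S100A14 and S100A16. They were selected by symbol from the 60708 genes of each count table, and all 10 were found once. The list was drawn up with the expression of these genes in these libraries already known. Their levels, fold-changes and calls are therefore given as descriptions without p-values. The other 11 annotated S100 genes, 6 S100 receptors and 13 S100 binding partners were followed as further lists.

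S100 proteins are small EF-hand proteins that bind calcium, change shape and then contact target proteins. Most work as dimers. Inside the cell they touch annexins, cytoskeletal proteins and p53, and several members are released and act on receptors such as RAGE (AGER) and TLR4. In skin and breast epithelium S100A7, S100A8 and S100A9 are known from inflamed or stratifying cells, S100A2 from basal cells, and S100A4 from motile and mesenchymal cells.

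MI-spheres are 3D cultures of MCF-10A, a non-tumorigenic human breast epithelial line, and MII-spheres are those of its HRAS-transformed derivative (MCF-10AneoT), both on ultra-low attachment plates. Each was left untreated (Ctrl) or given TGF-beta1 (TGFβ) at 2.5 ng/ml for 16 h. MDA-MB-231, a triple-negative breast cancer line grown as a monolayer, was measured untreated (WT), after CRISPR/Cas9 editing of SLUG, which is the gene SNAI2 (SLUG KO), and after transfection with SMAD2/3/4 siRNAs (siSMAD2/3/4) or scramble siRNA (Csi). Each of these 8 groups had 3 RNA-seq libraries, 24 in all. Edited cells had been expanded as single-cell colonies, so that a difference between SLUG KO and WT can also come from the clone. Nothing in the labels says whether the 3 libraries of a group came from separate cultures. The paper states in general that its results rest on 3 or more independent biological repeats. It does not spell this out for these libraries, and their spread may be technical.

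Total counts per library ranged from 14124688 to 38406952. The Csi and siSMAD2/3/4 libraries carry another batch label than the other 18, so that levels of these 6 libraries are set beside the others as a description and are not tested against them. HRAS was 220.4 CPM (counts scaled by library size) in unstimulated MII- and 40.8 in MI-spheres. SMAD2, SMAD3 and SMAD4 fell after siSMAD2/3/4, by 1.92, 0.69 and 1.72 on the log2 scale. SNAI2 mRNA was higher, not lower, in the libraries labelled SLUG KO (61.9 against 28.3 CPM in WT, 1.1 ± 0.22 on the log2 scale, edgeR, adjusted p = 0.0443). WT replicate 2 stood apart, with Pearson's r of 0.957 and 0.952 across genes to the other WT libraries, where those gave 0.989 with each other. For the S100 genes listed, calls that changed without it are given both ways. Other WT values include it unless stated. Of 6 epithelial markers, 4 were lower in WT than in unstimulated MI-spheres (CDH1, EPCAM, ESRP1 and GRHL2) and KRT8 and KRT18 were not called, at 602.1 and 461.8 CPM in WT, and of 6 mesenchymal-type markers 4 were higher (VIM, ZEB1, FN1 and CDH11) and CDH2 and SPARC were not called. Among all genes tested between these groups, 25.6% were called lower and 27.7% higher in WT.

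All 10 genes lie on the long arm of chromosome 1 (GRCh38, positions of the count tables), 8 of them within a run of 15 S100 genes that spans 274 kb from base 153357854 to 153632039. S100A10 and S100A11 lie more than a megabase away and are separated from each other by 38646 bases. In genomic order the cluster starts with S100A9, S100A12 and S100A8, continues to S100A7, S100A6, S100A4 and S100A2, and ends with S100A16, S100A14, S100A13 and S100A1. S100A9 is read on the plus strand and the other 9 members on the minus strand. None shared more than 2.4% of its exon bases with another gene, and this member was S100A6. Exon models ranged from 486 bases in S100A7 to 1701 bases in S100A16.

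The 250 bases before the start sites of 5 members are shown because these genes gave the widest range of levels between groups (S100A7, S100A8, S100A9), the largest rise between the lines (S100A4) and the largest rise with TGFβ in MI-spheres (S100A10). They are RefSeq promoters of GRCh38.p14, written 5′ to 3′ along the gene, and capitals mark every match to the SMAD-binding letters CAGAC, the AP-1 motif (TGA, any base, then TCA), the C/EBP core TTGCNNAA, the E-box CAGGTG that SNAI factors bind, or the TATA box TATAAA, on either strand. Their positions are chr1:153460652-153460901 (minus strand), chr1:153391074-153391323 (minus, the middle of 3 RefSeq starts), chr1:153357604-153357853 (plus), chr1:153545807-153546056 (minus) and chr1:151993860-151994109 (minus), in the order printed.
S100A7: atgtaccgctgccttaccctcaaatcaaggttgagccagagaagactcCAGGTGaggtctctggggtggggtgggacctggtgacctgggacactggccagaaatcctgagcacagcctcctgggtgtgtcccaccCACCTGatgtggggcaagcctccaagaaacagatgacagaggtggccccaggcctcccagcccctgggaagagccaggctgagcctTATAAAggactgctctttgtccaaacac
S100A8: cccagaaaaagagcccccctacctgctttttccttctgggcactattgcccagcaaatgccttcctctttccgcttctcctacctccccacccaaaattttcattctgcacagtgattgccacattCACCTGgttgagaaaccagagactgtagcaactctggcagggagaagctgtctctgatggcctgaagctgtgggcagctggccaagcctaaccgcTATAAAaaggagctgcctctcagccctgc
S100A9: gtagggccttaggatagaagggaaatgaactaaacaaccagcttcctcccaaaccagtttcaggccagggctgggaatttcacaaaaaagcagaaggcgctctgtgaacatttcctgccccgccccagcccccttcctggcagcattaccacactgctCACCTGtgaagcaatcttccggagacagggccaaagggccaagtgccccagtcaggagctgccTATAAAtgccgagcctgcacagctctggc
S100A4: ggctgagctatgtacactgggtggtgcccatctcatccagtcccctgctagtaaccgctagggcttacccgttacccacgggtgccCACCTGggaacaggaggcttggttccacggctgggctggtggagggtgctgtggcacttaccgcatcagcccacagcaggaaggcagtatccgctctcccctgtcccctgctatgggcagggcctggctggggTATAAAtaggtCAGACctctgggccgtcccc
S100A10: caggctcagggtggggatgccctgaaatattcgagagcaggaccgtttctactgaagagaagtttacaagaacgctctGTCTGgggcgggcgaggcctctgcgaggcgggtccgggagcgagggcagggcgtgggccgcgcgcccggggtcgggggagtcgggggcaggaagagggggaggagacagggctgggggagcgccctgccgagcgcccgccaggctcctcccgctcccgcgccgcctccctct

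S100A7, S100A8, S100A9 and S100A4 each held TATAAA with its first base 28 to 31 bases before the start, and these were the only members with that motif in the window, 4 of 10. By window, 5 of the 14 RefSeq windows of the members held it. It stood in 10.7% of 35097 RefSeq promoter windows of the same length. CAGGTG or its complement CACCTG was found in 7 of 10 members, among them these 4, and in 9 of their 14 windows, against 17.5% of all windows. The S100A8 windows overlap, so that the same TATAAA and the same CACCTG of this gene count in more than 1 window. S100A10 held no TATAAA and no CAGGTG, but 1 GTCTG, the complement of CAGAC, in a stretch with 71.2% G and C. CAGAC occurred in 6 of 10 members, in 7 of 14 windows and in 38% of all windows. The AP-1 motif was present in S100A2 and TTGCNNAA in S100A11, 1 of 10 each, against 6.57% and 9.05% of windows. Matches are letters in a window and were chosen for display after the levels were known.

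Levels are given as CPM after scaling of library sizes (TMM), and for comparison between genes as RPKM, which divides CPM by exon length in kb. In unstimulated MI-spheres S100A9 was the highest of the 10 genes per length, at 5468 ± 287 RPKM (SD, n = 3), and S100A4 the lowest, at 48.0 ± 1.35 RPKM. In unstimulated MII-spheres S100A6 was highest at 3905 ± 192 RPKM and S100A4 second at 674 ± 26.7 RPKM, while S100A7 and S100A8 closed the list at 1.57 ± 0.392 and 1.71 ± 0.284 RPKM. S100A6, which binds CACYBP and annexins, led the list in all 4 MDA-MB-231 groups. Over all 21 S100 genes, the summed RPKM was 21154 ± 862 in unstimulated MI-, 11376 ± 291 in unstimulated MII-spheres and 5076 ± 1615 in WT cells.

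**Figure D1:**
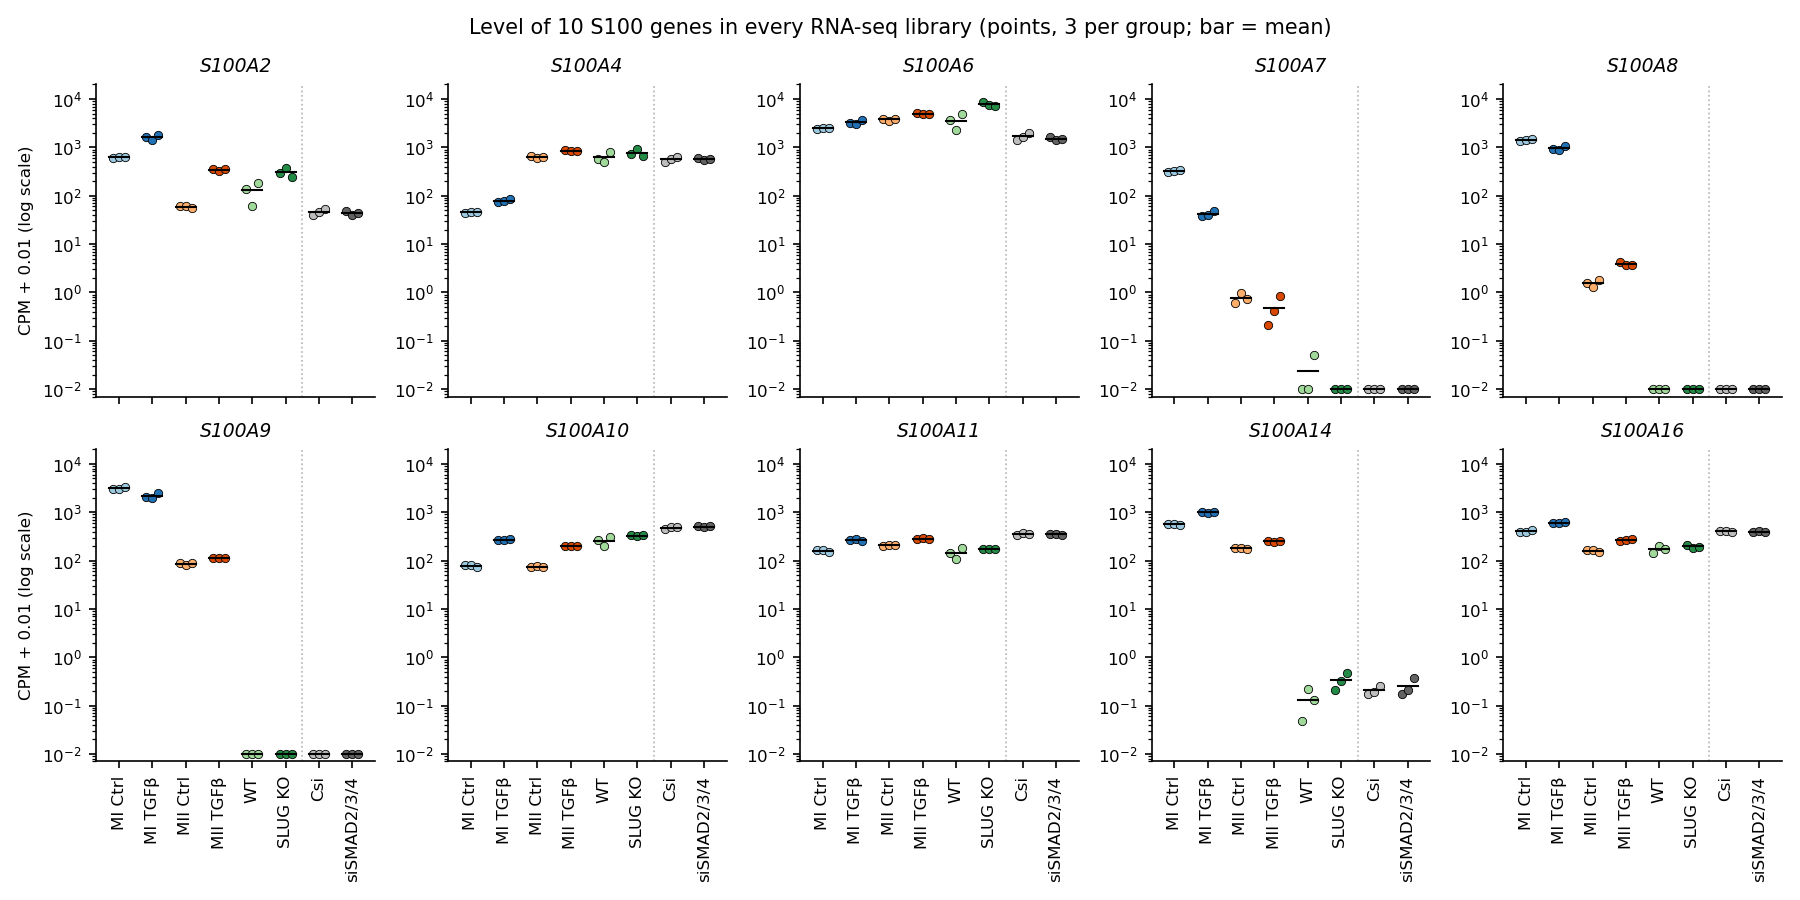
CPM of each of the 10 S100 genes in all 24 libraries, with 0.01 added, on a log axis. Points are libraries, bars are means of 3, and the dotted line separates the groups of the second batch label. S100A7, S100A8 and S100A9 fall from between 325.2 and 3133 CPM in unstimulated MI-spheres to 0 or close to 0 in MDA-MB-231, while S100A4 stands at 45.4 CPM in unstimulated MI-spheres and between 567.2 and 852.0 CPM in the means of the 6 MII and MDA-MB-231 groups.

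The family was dominated by few genes. S100P, a family member on another chromosome, made up 44.1% ± 0.141 of the summed RPKM in unstimulated MI- and 52.3% ± 0.806 in unstimulated MII-spheres, and its mean was at most 0.556 CPM in MDA-MB-231. Among the 10 genes, S100A9 and S100A8 held 25.8% ± 0.423 and 7.65% ± 0.0196 of the family in unstimulated MI-spheres. In unstimulated MII-spheres S100A9 held 1.33% ± 0.0228 and S100A6 34.3% ± 0.949. S100A6 held 72.3% ± 3.32 in WT and 81.7% ± 1.73 in the SLUG KO libraries.

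**Figure D2:**
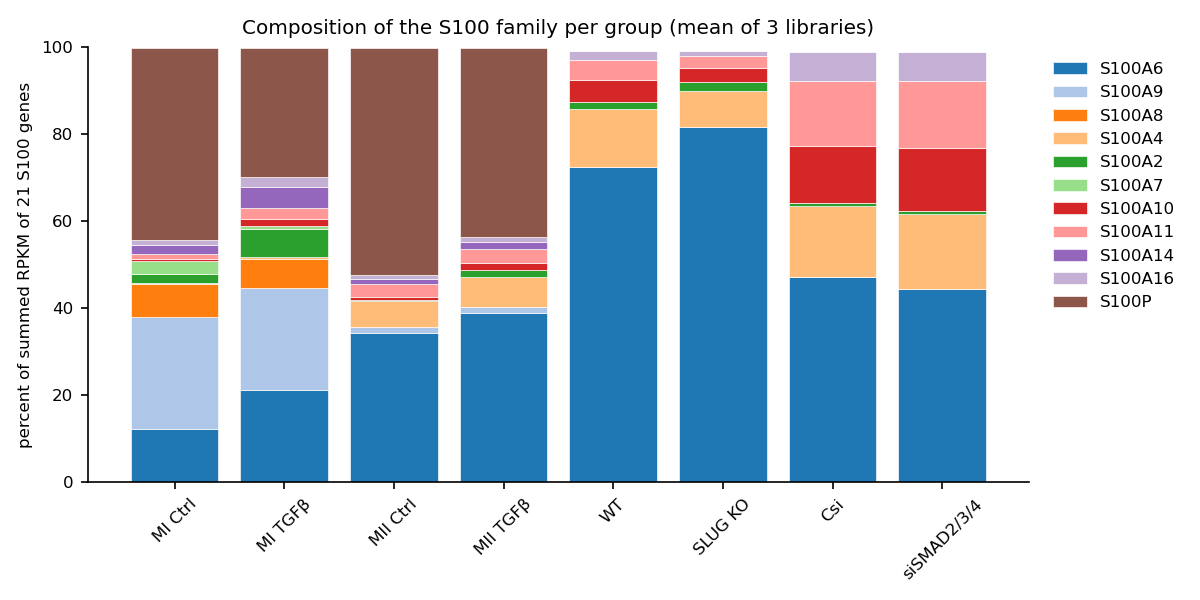
Share of each gene in the summed RPKM of 21 S100 genes, in percent, as the mean of 3 libraries per group. The other 10 S100 genes besides S100P and the 10 members together fill the narrow space left at the top. S100A9 takes 25.8% in MI Ctrl and 1.33% in MII Ctrl, and S100A6 takes 12.1% and 34.3%.

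The first comparison asks how the 10 genes responded to TGFβ in spheres of each line. In MI-spheres 7 members were higher and 3 lower after TGFβ, where 28.7% of the 16863 genes tested were called higher, 27.4% lower and 56.0% either way (edgeR's quasi-likelihood test, adjusted p under 0.05). In MII-spheres 9 were higher and none lower, where 30.0% of 16396 genes were called higher and 57.7% either way. The median log2 fold-change of the 10 was 0.58 in MI- and 0.42 in MII-spheres, and that of all genes tested was -0.02 in both. With an absolute log2 fold-change above 1 as well, the DEGs were S100A2 and S100A10 (higher) and S100A7 (lower) in MI-spheres, and S100A2, S100A8 and S100A10 (higher) in MII-spheres, where 13.5% and 10.6% of all genes tested were DEGs. S100A7 was the member not called in MII-spheres. Stimulated and unstimulated libraries did not overlap for 10 of 10 members in MI- and 9 of 10 in MII-spheres, as for 52.4% and 50.6% of 22194 genes. These 22194 genes passed the filter over all 24 libraries and were compared on log2 CPM. They include genes with too few counts to be tested in a given comparison.

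S100A7, or psoriasin, and the S100A8 and S100A9 pair, which form the heterodimer calprotectin that binds zinc and manganese and signals through TLR4, were the 3 members that fell in MI-spheres. S100A7 was at 316.5, 322.4 and 336.6 CPM in the unstimulated libraries and at 38.6, 40.8 and 48.2 CPM after TGFβ, so that the groups lay far apart. Its log2 fold-change was -3.01 ± 0.065 (SE), or 8.07-fold lower. S100A8 went from 1385, 1434 and 1508 CPM to 906.4, 871.6 and 1078 CPM, a log2 fold-change of -0.68 ± 0.062. S100A9 went from 3016, 3061 and 3321 CPM to 2036, 1996 and 2449 CPM, with -0.62 ± 0.064. For all 3 the groups did not overlap, and the highest stimulated library was the same one, replicate 3. Their libraries moved nearly in proportion, as the S100A9 to S100A8 ratio of RPKM was 3.38 ± 0.0533 without and 3.53 ± 0.0336 with TGFβ.

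In MII-spheres the same 3 genes started from a far lower level. S100A7 had 9, 29 and 13 counts in the unstimulated and 3, 6 and 12 counts in the stimulated libraries, which overlapped at 0.596 to 0.971 and 0.203 to 0.816 CPM. Its log2 fold-change of -0.78 ± 0.447 was not called, and without MII TGFβ replicate 3 it was -1.40 and called. S100A8 rose from 1.52, 1.27 and 1.78 CPM to 4.20, 3.73 and 3.60 CPM, with a log2 fold-change of 1.33 ± 0.229. S100A9 rose from 89.3, 83.1 and 88.6 CPM to 114.2, 112.8 and 113.0 CPM, with 0.35 ± 0.046. Neither gene overlapped between the groups. The ratio of S100A9 to S100A8 RPKM was 90.04 ± 12.03 in unstimulated and 46.0 ± 3.33 in stimulated MII-spheres. It rests on few S100A8 counts, 23, 38 and 32 without and 62, 56 and 53 with TGFβ. A ratio of RNA levels does not give that of the proteins.

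S100A2, a basal-cell member that binds p53, rose in both lines. It stood at 613.0, 630.1 and 633.7 CPM in unstimulated MI-spheres and at 1609, 1441 and 1800 CPM after TGFβ, a log2 fold-change of 1.29 ± 0.060. In MII-spheres it went from 61.8, 60.3 and 55.2 CPM to 355.0, 331.4 and 354.5 CPM, with 2.52 ± 0.043. This was a 5.73-fold rise, the largest of the 10 genes in that line, and the stimulated MII level stayed below every unstimulated MI library. Basal epithelial markers moved with S100A2. Of 6, 5 were higher after TGFβ in each line, where 28.7% and 30.0% of all genes tested were called higher. ITGB4 was not called in either line. The summed level of the 6 went from between 2087 and 2152 to between 3879 and 4070 CPM in MI-spheres. In MII-spheres it went from between 936.2 and 992.9 to between 2101 and 2246 CPM. KRT5, a basal keratin, rose by 2.39 ± 0.05 and 3.38 ± 0.05 on the log2 scale (edgeR, adjusted p = 8.23e-21 and 1.96e-60), and TP63, which encodes p63, by 0.69 ± 0.06 and 2.11 ± 0.31 (adjusted p = 7.88e-10 and 1.65e-08). Both were named from the 6 basal markers after their values were seen. The part of basal markers in the change of S100A2 was not tested, and in such bulk samples more cells of a type and more RNA per cell cannot be told apart.

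S100A10, which forms a tetramer with annexin A2 and links it to the plasma membrane and to plasminogen, had the largest rise in MI-spheres. Its libraries stood at 81.6, 80.8 and 74.0 CPM without and at 273.1, 264.5 and 273.9 CPM in the stimulated group, with a change on the log2 scale of 1.70 ± 0.053, or 3.24-fold. In MII-spheres they went from 73.7, 78.1 and 73.6 CPM to 200.4, 197.2 and 197.2 CPM, with 1.36 ± 0.042, or 2.57-fold. The unstimulated levels of the lines thus overlapped, and the stimulated level was higher in MI-spheres. ANXA2 rose as well, by 0.71 ± 0.06 in MI- and 0.61 ± 0.03 in MII-spheres (edgeR, adjusted p = 7.64e-10 and 1.31e-27). The ratio of S100A10 to ANXA2 RPKM went from 0.543 ± 0.0473 to 1.08 ± 0.0914 and from 0.361 ± 0.0216 to 0.607 ± 0.00303.

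S100A14 and S100A16, neighbours in the cluster and known from epithelial cells, rose less. S100A14 went from 567.5, 584.7 and 542.8 CPM to 997.1, 968.2 and 1031 CPM in MI-spheres, with 0.74 ± 0.051, and from 178.7, 186.3 and 175.2 CPM to 260.2, 239.3 and 255.0 CPM in MII-spheres, with 0.45 ± 0.039. S100A16 went from 389.7, 394.9 and 423.1 CPM to 600.5, 586.1 and 629.1 CPM in MI-spheres, with 0.51 ± 0.051, and from 162.9, 162.0 and 151.6 CPM to 251.2, 261.0 and 280.9 CPM in MII-spheres, with 0.70 ± 0.040. Neither gene overlapped between stimulated and unstimulated libraries in either line.

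S100A4, which binds nonmuscle myosin and is linked to cell motility, rose by 0.73 ± 0.065 in MI- and 0.38 ± 0.034 in MII-spheres. Its libraries went from 44.2, 45.3 and 46.7 CPM to 73.1, 77.4 and 87.5 CPM in the former and from 661.7, 611.3 and 640.1 CPM to 882.7, 823.9 and 849.3 CPM in the latter. TGFβ left S100A4 in MI-spheres well below any MII library. S100A11, an annexin A1 partner, rose by 0.66 ± 0.058 in MI-spheres, from 163.0, 162.1 and 150.5 to 261.9, 281.9 and 250.5 CPM. It rose by 0.40 ± 0.037 in MII-spheres, from 201.8, 214.7 and 214.9 to 279.3, 293.8 and 284.0 CPM. S100A6 had the smallest rise in MI-spheres, by 0.33 ± 0.058 from 2368, 2505 and 2575 to 3190, 3094 and 3603 CPM, and rose by 0.36 ± 0.034 in MII-spheres from 3902, 3577 and 3897 to 5178, 4807 and 4930 CPM. All 3 genes were free of overlap in both lines.

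**Figure D3:**
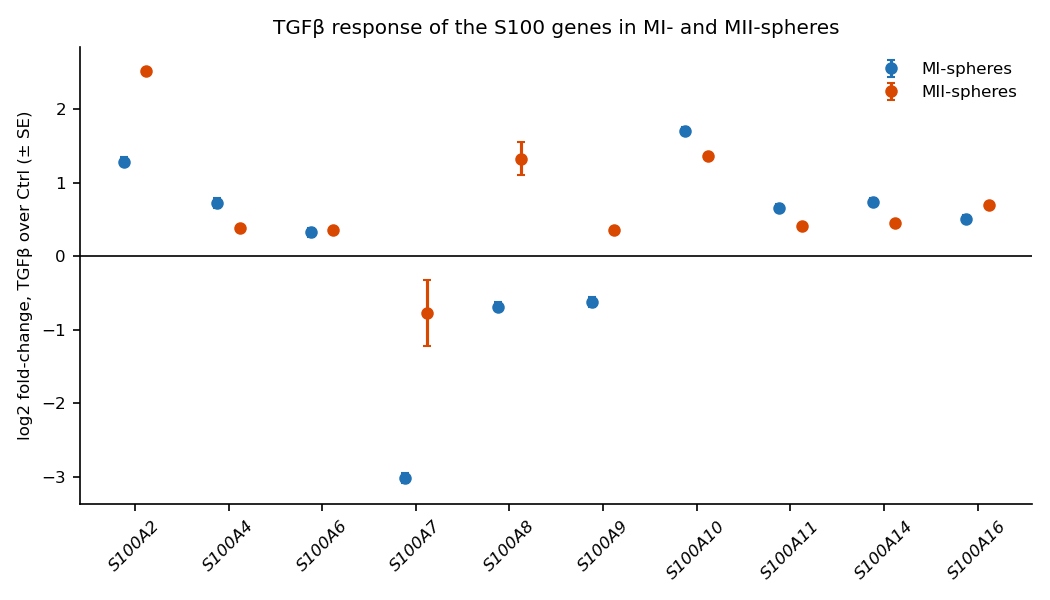
log2 fold-change of the 10 genes after TGFβ in MI- (blue) and MII-spheres (orange), with bars of 1 SE. S100A7 is at -3.01 in MI-spheres with a wide bar at -0.78 in MII-spheres, S100A8 and S100A9 lie on opposite sides of 0, and S100A2 and S100A10 lie above 1 in both.

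The interaction of cell line and TGFβ gives the difference of the 2 responses. It was called for 9 of the 10 genes, 5 with a more positive response in MII- than MI-spheres and 4 with a less positive one, where 22.5% of 18591 genes were called, 12.7% and 9.85% in these directions. Differences on the log2 scale, MII minus MI, were 2.22 ± 0.444 for S100A7, 2.03 ± 0.194 for S100A8, 1.24 ± 0.075 for S100A2, 0.98 ± 0.077 for S100A9 and 0.20 ± 0.067 for S100A16. They were -0.33 ± 0.072 for S100A4, -0.32 ± 0.068 for S100A10, -0.28 ± 0.064 for S100A14 and -0.24 ± 0.069 for S100A11. S100A6 gave 0.04 ± 0.068 and was not called. The interaction of S100A16 was lost when 8 of the 12 libraries were left out singly, and that of S100A7 without MII TGFβ replicate 3 (1.55). The values of S100A7 and S100A8 rest on few counts in MII-spheres, 3 to 29 and 23 to 62 per library.

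The second comparison sets unstimulated MII- against MI-spheres and so the HRAS-transformed line against its parent. Of the 10 genes 3 were higher and 6 lower, where 31.8% of 17862 genes tested were called higher, 32.6% lower and 64.4% either way. S100A4 was the only DEG higher and 6 were DEGs lower, where 12.5% and 7.62% of all genes were DEGs in these directions. Their median log2 fold-change was -1.48, against 0.02 over all genes tested. The lines also differ in history, and the role of HRAS in this difference was not tested.

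S100A4 was 14.2-fold higher in MII-spheres, with a log2 fold-change of 3.82 ± 0.042. Its lowest MII library was at 611.3 CPM and its highest MI library at 46.7 CPM. S100A8 was 965-fold lower (-9.91 ± 0.068), S100A7 396-fold lower (-8.63 ± 0.079) and S100A9 35.9-fold lower (-5.16 ± 0.043). For S100A7 and S100A8 the MII side of these folds rests on 51 and 93 counts over 3 libraries. S100A2 was 10.5-fold lower (-3.39 ± 0.041), S100A14 3.11-fold lower (-1.64 ± 0.036) and S100A16 2.51-fold lower (-1.33 ± 0.037), while S100A6 (0.62 ± 0.035) and S100A11 (0.42 ± 0.038) were higher by less than the DEG threshold. S100A10 differed by -0.06 ± 0.048 and was not called, but was called lower at -0.19 with the gene-length trend removed.

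Along chromosome 1 the lowered genes were not in 1 block. S100A9, S100A8 and S100A7 at the start of the cluster and S100A2, S100A16 and S100A14 towards its other end were lower in MII-spheres, and S100A6 and S100A4 between them were higher. No other S100 gene lies between the spans of S100A4 and S100A2, and S100A3 lies within the span of S100A4. Unlike S100A4, S100A3 was lower in MII-spheres, by 2.25 ± 0.28 on the log2 scale (edgeR, adjusted p = 2.28e-11), at 0.633 against 3.10 CPM. S100A12, the neighbour of S100A8 and S100A9, was at 8.88, 7.85 and 9.77 CPM in unstimulated MI-spheres and had 1 count in all unstimulated MII libraries together. The ratio over that count was 556-fold, with a 95% counting interval from 99.8 to 22000 that covers counting error only.

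Myeloid cells, which carry S100A8, S100A9 and S100A12 in blood, were examined by 10 marker genes. Of these, 6 were under 0.5 CPM in the mean of unstimulated MI-spheres and 6 in unstimulated MII-spheres, with PTPRC, the leukocyte antigen CD45, at 0 and 0.0848 CPM. MPO and FCGR3B, of neutrophils, had group means of at most 0.173 CPM. The summed level of the list was 108.3 to 115.4 CPM in unstimulated MI- and 229.1 to 231.8 CPM in unstimulated MII-spheres, mostly CD14 (101.7 and 192.6 CPM). By gene, 2 of the 5 tested were higher in unstimulated MII-spheres (log2 fold-change 0.94 for CD14 and 7.09 for LYZ) and 3 were lower (-3.54 for CSF3R, -2.33 for ITGAM and -0.66 for CSF1R), the latter in the direction of S100A8 and S100A9. The part of such cells in the levels of S100A8 and S100A9 was not tested. Basal epithelial markers were lower in MII-spheres for 4 of 6 genes, TP63 by 6.42 ± 0.13 on the log2 scale (edgeR, adjusted p = 1.27e-61), where 32.6% of all genes were called lower. KRT14 was higher, by 2.42 ± 0.17 (adjusted p = 2.79e-23), and ITGB4 was not called. S100A2 was lower in the same libraries.

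**Figure D4:**
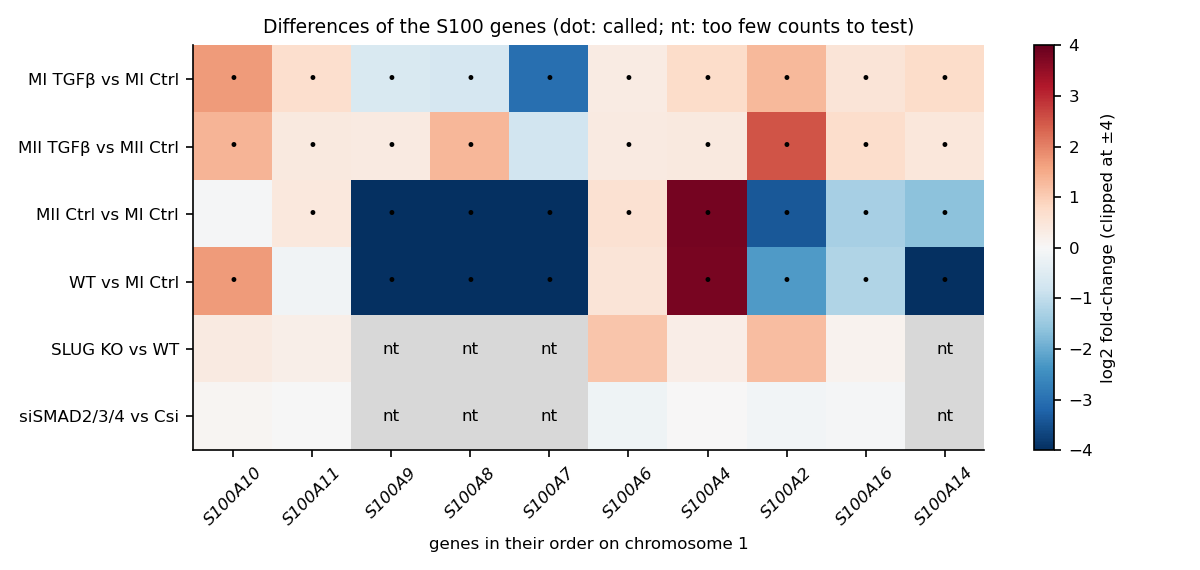
log2 fold-changes of the 10 genes, in their order on chromosome 1, in 6 comparisons. Colour is clipped at ±4, a dot marks a called gene and nt a gene with too few counts to test. The MII Ctrl against MI Ctrl row is dark blue at S100A9, S100A8 and S100A7 and dark red at S100A4, while no dot stands in the SLUG KO and siSMAD2/3/4 rows.

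The level order over the 6 groups of the first batch label separated the genes. S100A7, S100A8 and S100A9 were highest in MI Ctrl, S100A2, S100A14 and S100A16 in MI TGFβ, and S100A4 and S100A11 in MII TGFβ, although S100A4 overlapped there with SLUG KO and S100A11 with MI TGFβ. S100A6 and S100A10 were highest in SLUG KO and clear of the next group. MII Ctrl and WT overlapped for S100A4 (637.7 ± 25.3 and 629.5 ± 158.0 CPM), and MI Ctrl and MII Ctrl for S100A10. SLUG KO and WT overlapped at the low end for S100A14.

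The third comparison sets untreated MDA-MB-231 against unstimulated MI-spheres, where cell line, monolayer against 3D growth and medium cannot be told apart. Of the 10 genes 2 were higher and 6 lower, where 27.7% of 18732 genes tested were called higher, 25.6% lower and 53.3% either way. S100A4 was 13.8-fold higher (3.79 ± 0.242) and S100A10 3.23-fold higher (1.69 ± 0.207). S100A8 and S100A9 had no count in any of the 12 MDA-MB-231 libraries. With 3 counts over the 3 WT libraries as the limit, S100A9 was at least 78900-fold and S100A8 at least 36300-fold higher in unstimulated MI-spheres. S100A7 had 1 count in WT replicate 3 and none in the other 11 MDA-MB-231 libraries, which gave a ratio of 24600 with a 95% counting interval from 4410 to 971000.

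S100A14 was at 0.0376, 0.207 and 0.121 CPM in WT, from 1, 5 and 3 counts, where the lowest unstimulated MI library was at 542.8 CPM. S100A2 was 4.84-fold lower (-2.27 ± 0.389) and S100A16 2.32-fold lower (-1.21 ± 0.188). S100A6 (0.53 ± 0.279) and S100A11 (-0.13 ± 0.220) were not called, and their libraries overlapped. In simulated counts of this comparison 7 of 100 genes changed by 1 on the log2 scale were called. The simulation changed only 200 genes, while 53.3% of genes were called in the data, which makes the adjusted threshold easier to pass. It therefore cannot tell how often such a change would be called here. A missing call still does not mean that a gene was unchanged. Without WT replicate 2 S100A6 was called higher at 0.74 and S100A11 turned to 0.01.

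The fourth comparison asks whether the genes differ in MDA-MB-231 libraries labelled SLUG KO, after editing of a repressor of epithelial genes. With 6 members tested none was called by edgeR, where 3.14% of 17428 genes were called. In simulated counts of this comparison edgeR called 9 of 100 genes changed by 1 on the log2 scale. A missing call here thus does not mean that a gene was unchanged. DESeq2 called 2 of the 7 members it tested, where it called 5.23% of 23008 genes. WT and SLUG KO libraries did not overlap for 3 of the 6 members and 27.9% of 22194 genes. Without WT replicate 2 edgeR called 3 of the 6, where 31.4% of all genes tested were called. The 2 called by DESeq2 were S100A2 and S100A6, and edgeR without WT replicate 2 called these and S100A16. S100A7, S100A8 and S100A9 had no count in the SLUG KO libraries, and S100A14 had 5, 7 and 10 counts there and 1, 5 and 3 in WT.

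S100A6 was at 3648, 2301 and 4841 CPM in WT and at 8727, 7617 and 7293 CPM in SLUG KO. Every SLUG KO library lay above every WT library, and the log2 fold-change was 1.11 ± 0.281, or 0.88 without WT replicate 2, its lowest library. S100A2 was at 139.8, 62.2 and 187.4 CPM in WT and at 302.1, 376.2 and 248.5 CPM in SLUG KO, again without overlap, with 1.23 ± 0.394, or 0.91 without WT replicate 2. S100A10 did not overlap either, at 266.1, 199.9 and 300.9 against 332.0, 319.9 and 338.2 CPM, with 0.34 ± 0.197.

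The other 3 genes overlapped between WT and SLUG KO. S100A4 gave 0.26 ± 0.238 from 583.5, 499.7 and 805.4 against 735.1, 913.3 and 652.1 CPM. S100A11 gave 0.24 ± 0.213 from 146.4, 108.9 and 181.6 against 175.7, 169.9 and 178.1 CPM, and S100A16 gave 0.14 ± 0.185 from 144.8, 200.8 and 178.0 against 212.5, 184.2 and 191.6 CPM. WT replicate 2 was the lowest library for S100A4, S100A11, S100A10, S100A6 and S100A2 and the highest WT library for S100A16. Among the other S100 genes S100A3 was called higher, at 1.46 ± 0.19 (edgeR, adjusted p = 0.00933), from 20.7 to 57.8 CPM. In the same libraries the mesenchymal-type gene FN1 was lower by 3.17 ± 0.24 and CDH11 by 1.58 ± 0.17 (edgeR, adjusted p = 0.002 and 0.00554), while the other 4 of 6 such markers were not called, with 0.93 for CDH2, 0.72 for SPARC, 0.04 for ZEB1 and -0.12 for VIM.

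**Figure D5:**
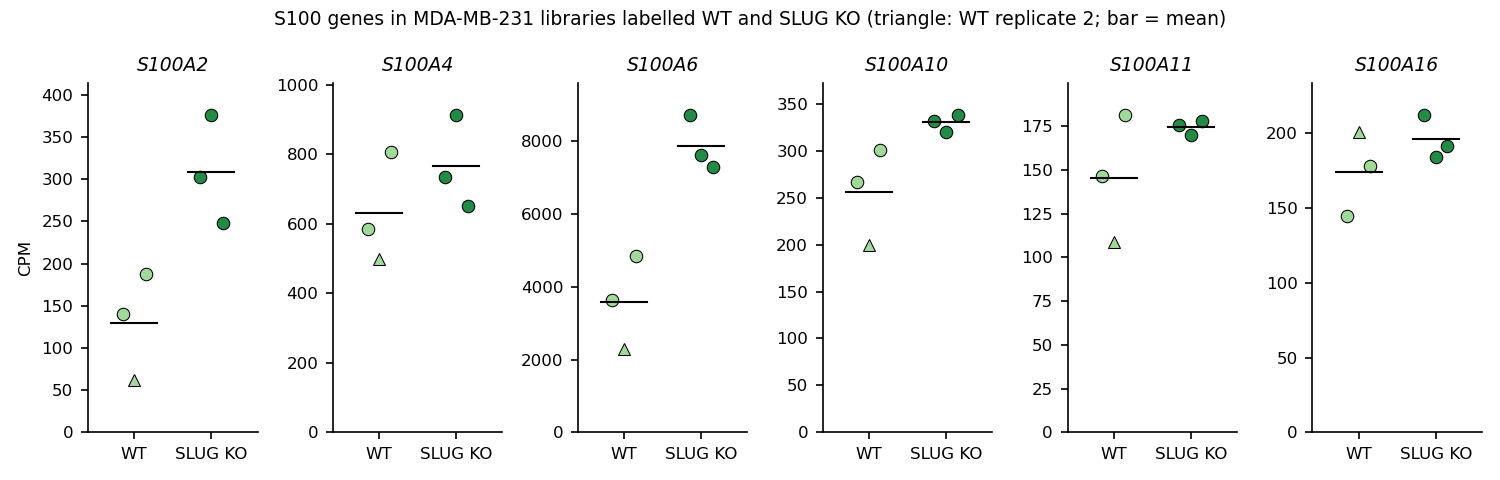
CPM of the 6 measured S100 genes in the WT and SLUG KO libraries, each axis from 0, with bars at the mean of 3. The triangle is WT replicate 2. S100A2, S100A6 and S100A10 show no overlap, and the triangle is the lowest point in 5 of the 6 panels and the highest WT point for S100A16.

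The last comparison asks whether the genes depend on SMAD2, SMAD3 and SMAD4 in MDA-MB-231 without added TGFβ. None of the 6 members tested was called by edgeR or DESeq2, and edgeR called 36.1% of 17696 genes tested. The groups did not overlap for 37.1% of 22194 genes. In simulated counts of this comparison 95 of 100 genes changed by 1 on the log2 scale were called, and smaller changes were not simulated. The depletion was partial, with SMAD2, SMAD3 and SMAD4 mRNA at 0.26, 0.62 and 0.30 of the Csi level. Log2 fold-changes were 0.07 ± 0.038 for S100A10, 0.01 ± 0.099 for S100A4, -0.02 ± 0.039 for S100A11, -0.04 ± 0.038 for S100A16, -0.10 ± 0.106 for S100A2 and -0.17 ± 0.150 for S100A6. S100A10 was at 449.7, 494.1 and 497.1 CPM in Csi and 511.8, 496.2 and 514.1 CPM in siSMAD2/3/4. S100A2 was at 40.3, 46.4 and 54.1 CPM in Csi and 49.1, 39.7 and 43.7 CPM in siSMAD2/3/4. All 6 genes overlapped between the groups.

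S100A6 spread most, with Csi at 1400, 1643 and 2024 CPM and siSMAD2/3/4 at 1612, 1437 and 1474 CPM. Csi replicate 1 was the lowest library of its group for S100A2, S100A4, S100A6, S100A10 and S100A11, and without it S100A2 was called lower at -0.18. In the file headers 2 of the 3 siSMAD2/3/4 libraries name another flow cell than the Csi libraries, and with flow cell as a term again none of the 6 was called.

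Receptors and partners moved in their own ways. Their counts stand against the shares of all genes called that are given above for each comparison, 56.0% in MI- and 57.7% in MII-spheres after TGFβ, 64.4% between the lines, 53.3% in WT, 3.14% in SLUG KO and 36.1% in siSMAD2/3/4. After TGFβ 4 of 6 receptors were higher and 1 lower in MI-spheres, and 3 and 1 in MII-spheres. Of 13 partners 10 were higher and 2 lower in MI-, and 9 and 2 in MII-spheres. Those with the smallest adjusted p in both lines were ANXA11, an annexin bound by S100A6, which fell by 1.39 ± 0.05 and 0.54 ± 0.04 (edgeR, adjusted p = 4.33e-16 and 4.55e-22), ANXA2, and HLTF, a helicase-like factor, which rose by 0.86 ± 0.06 and 0.66 ± 0.05 (adjusted p = 7.79e-11 and 1.49e-18). TLR4, the receptor of S100A8 and S100A9, was 3.50 ± 0.06 higher on the log2 scale in unstimulated MII- than MI-spheres (edgeR, adjusted p = 2.39e-64), opposite to S100A8 and S100A9 themselves. ANXA1 and ANXA2 were higher there by 0.90 ± 0.03 and 0.53 ± 0.03 (adjusted p = 7.27e-41 and 4.58e-25). Of 13 partners 5 were higher and 6 lower in that comparison, and of 6 receptors 2 and 1. In WT against MI Ctrl 5 partners were higher and 1 lower, and 2 receptors, MCAM and AGER, were higher. The partner ANXA6 was higher by 7.92 ± 0.35, the receptor MCAM by 5.47 ± 0.32, and the partner ANXA11 fell by 1.29 ± 0.23 (edgeR, adjusted p = 7.86e-06, 1.96e-05 and 0.003). ANXA6 was the 1 partner called in SLUG KO, higher by 0.92 ± 0.16 (adjusted p = 0.0303), and no receptor was called. In siSMAD2/3/4 3 partners were higher and 5 lower, and 1 and 3 receptors, with log2 fold-changes of -0.43 ± 0.04 for ALCAM, 0.26 ± 0.04 for ANXA1 and -0.32 ± 0.05 for MCAM (edgeR, adjusted p = 1.7e-11, 3.82e-07 and 9.89e-07).

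The interaction of line and TGFβ was called for 2 of 6 receptors and 4 of 13 partners, where 22.5% of all genes were. It was 0.86 ± 0.06 for ANXA11, -1.29 ± 0.28 for MCAM and -0.52 ± 0.11 for AHNAK (edgeR, adjusted p = 8.15e-16, 0.000267 and 0.00286). AGER, which encodes RAGE, had a mean of at most 5.66 CPM in any group and was called in WT against MI Ctrl only among the 7 comparisons, at 1.47 ± 0.42 (adjusted p = 0.0213).

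Of the other 11 S100 genes, 5 had enough counts to test in each TGFβ comparison. In MI-spheres S100P fell by 1.06 ± 0.06, S100A12 by 1.78 ± 0.15 and S100A1 by 0.75 ± 0.21 on the log2 scale (edgeR, adjusted p = 1.36e-13, 1.08e-09 and 0.00442), and S100A3 rose by 0.96 ± 0.18 (adjusted p = 9.37e-05). S100P went from 4218, 4383 and 4592 CPM to 2183, 2156 and 2378 CPM. In MII-spheres S100P fell by 0.09 ± 0.03 (adjusted p = 0.0188) and the interaction of S100P was 0.98 ± 0.06 (edgeR, adjusted p = 6.37e-18). Its fall in MI-spheres thus ran with those of S100A7, S100A8, S100A9 and S100A12. In MII-spheres S100A3 rose by 1.40 ± 0.34 and S100A13 fell by 0.24 ± 0.06 (edgeR, adjusted p = 0.000275 and 0.000793). Between the unstimulated lines 1 of 6 other S100 genes tested was higher and 4 were lower, where 31.8% and 32.6% of all genes were called in these directions. S100A5 was higher by 3.25 ± 0.54 (edgeR, adjusted p = 1.38e-07). This fold rests on few counts, 6, 1 and 0 in unstimulated MI- and 12, 36 and 19 in unstimulated MII-spheres. The lower ones were S100A3 and S100A12 as given above, S100P at -0.64 ± 0.03 and S100A13 at -0.50 ± 0.05 (edgeR, adjusted p = 4.9e-30 and 1.23e-13). In WT against MI Ctrl all 6 tested were called, where 53.3% of all genes were. S100A3 and S100A5 were higher, by 2.74 ± 0.25 and 5.37 ± 0.67 (edgeR, adjusted p = 0.000129 and 0.000529), and S100A1 and S100A13 fell by 1.55 ± 0.25 and 1.42 ± 0.22 (adjusted p = 0.00168 and 0.00147). The fold of S100A5 again rests on its few counts in unstimulated MI-spheres. S100P was at 0.302 CPM in WT, and S100A12, with no count there, was at least 222-fold higher in unstimulated MI-spheres. In siSMAD2/3/4 S100A13 was the 1 of 5 called, falling by 0.20 ± 0.07 (edgeR, adjusted p = 0.021), where 36.1% of all genes were called. S100A1 and S100A13 share exon bases on opposite strands and were counted without strand, so their values are uncertain.

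By the pattern over all 24 libraries, the protein-coding genes most like each member were found outside the S100 family by Pearson's r of log2 CPM. S100A9 was closest to SPRR1A (0.998) and PLA2G4F (0.997), S100A8 to SIRPB2 (0.99) and SPRR1B (0.987), and S100A7 to PGLYRP4 (0.988) and SIRPB2 (0.986). SPRR1A and SPRR1B are cornified envelope proteins of squamous epithelium. S100A14 was closest to ALDH3B2 and GJB5 (both 0.996), S100A2 to LRRC8D (0.975) and SEC23B (0.971), and S100A4 to ENC1 (0.971) and ABCA1 (0.963). S100A10 was closest to PFN1, the actin binder profilin (0.966), and CALD1, the actin-bound caldesmon (0.961), S100A16 to UBL7 (0.968) and HSPB1 (0.955), S100A6 to CDC26 (0.956) and SDF2 (0.942), and S100A11 to PCYOX1 (0.927) and CAMK2D (0.922). The 24 points share 3 cell lines, 8 groups and 2 batch labels.

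Short protein-coding genes rose with TGFβ more than protein-coding genes in general, and all 10 members are short. The median over protein-coding genes of at most 1701 bases was 0.22 on the log2 scale in MI- and 0.21 in MII-spheres, against 0.06 over all protein-coding genes in both. A smooth trend on gene length was also fitted over all genes tested, of every type, and removed. The median of the 10 then went from 0.58 to 0.74 in MI- and from 0.42 to 0.76 in MII-spheres, and 7 and 9 were again higher. This rise runs opposite to what the protein-coding medians alone would give. The share of RN7SL1, a structural RNA, differed between groups, at 3.36% to 3.78% of counts in unstimulated and 5.99% to 6.61% in stimulated MII-spheres, and 7.44% to 9.49% in MI-spheres. With library totals in place of TMM the median of all genes moved from -0.02 to -0.15 in both TGFβ comparisons, and the numbers of members called higher and lower stayed at 7 and 3, and at 9 and 0.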

How the data were processed

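Libraries were made from ribosomal RNA-depleted total RNA with a stranded kit. After trimming (Trimmomatic) and alignment to GRCh38.p13 (STAR), the authors counted read pairs per gene with featureCounts of Subread 2.0.0 (GENCODE release 38, mapping quality of at least 30, no chimeras). The deposited values are raw counts per gene, and counting ignored strand. Gene names came from GENCODE release 44, which matched 60463 of 60708 genes (99.6%).

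The members and lists were chosen with earlier results of these data known. Genes passing filterByExpr were tested with edgeR 4.0.16 (R 4.3.3, quasi-likelihood test, TMM scaling, Benjamini-Hochberg adjustment) on the 6 libraries of each comparison, or the 12 sphere libraries for the interaction. A gene was called at an adjusted p under 0.05, and a DEG had an absolute log2 fold-change above 1 as well. CPM used TMM over all 24 libraries, so ratios of CPM can differ from fitted fold-changes. Folds against groups without counts used a limit of 3 counts over the group, and intervals and limits cover counting error only. Likeness used log2 CPM with a prior count of 2. The genes named from other lists were the other S100 genes where called, ANXA2, up to 3 receptors or partners with the smallest adjusted p per comparison, and targeted genes. AGER and the single marker genes were named after their values were seen. Scripts were tested on simulated data. Alternatives were DESeq2 1.42.0, its size factors, other filters, removal of a gene-length trend, a replicate block, flow cell, leaving out each library and, chosen after seeing the data, library totals. The 16 ATAC-seq samples were not analysed here.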

Additional observations from a re-analysis of the deposited data

Results flagged for a closer look

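The response to TGFβ differed between the cell lines for 9 of the 10 S100 genes by the interaction term (edgeR's quasi-likelihood test over 12 libraries), where 22.5% of 18591 genes were called. As log2 differences, MII minus MI, the values were 2.22 for S100A7, 2.03 for S100A8, 1.24 for S100A2, 0.98 for S100A9 and 0.20 for S100A16. S100A8 and S100A9 had fold-changes of opposite sign in the lines. In MII-spheres S100A7 had 3 to 29 counts per library and S100A8 23 to 62, and the change of S100A7 was not called there. The values were -0.33 for S100A4, -0.32 for S100A10, -0.28 for S100A14 and -0.24 for S100A11, all 4 higher after TGFβ in both lines with the smaller rise in MII-spheres. S100P, outside the 10 genes, gave 0.98. The interaction of S100A16 was lost in 9 of 19 alternatives, and that of S100A7 without MII TGFβ replicate 3.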

How the results depend on the processing

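Of 895 values of the 10 genes under alternatives, 863 kept direction and side of the threshold, and of 661 that were called in the first place 651 did and none reversed. The 10 losses were the interaction of S100A16 (9 of 19 alternatives) and that of S100A7 without MII TGFβ replicate 3. Reversed values were all of genes not called: S100A10 between the lines at 0.0355 with library totals, the interaction of S100A6 at -0.0399 to 0.0643 over the 12 libraries left out singly, below 0 for 6 of them, S100A11 between WT and MI Ctrl at -0.3352 to 0.014, the latter without WT replicate 2, and, under siSMAD2/3/4, S100A4 at -0.0737 to 0.1081, S100A11 at -0.0454 to 0.0142 and S100A2 at -0.179 to 0.0183 with 1 library left out. The members called between WT and MI Ctrl numbered 4 with at least 10 counts in every library, where 6 could be tested. Under SLUG KO they were 2 by DESeq2 and 0 to 3 with 1 library left out, the 3 without WT replicate 2, and under siSMAD2/3/4 0 to 1. All genes called under SLUG KO were 548, against 5621 without WT replicate 2, 325 without WT replicate 3, 123 to 165 without WT replicate 1 or any 1 SLUG KO library, 1204 by DESeq2, 240 with at least 10 counts and 239 with the block. Replicate numbers did not pair the samples (correlations of deviations from -0.123 to 0.051), and with a replicate block the members called higher and lower were again 7 and 3, 9 and 0, 3 and 6, 5 and 4, 2 and 6, 0 and 0, and 0 and 0. S100A7 in MII-spheres and S100A14 in MDA-MB-231 rest on few counts, and the causes of these shifts were not tested.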
